A study of Cavia porcellus with 18 samples.

Results

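The upstream flank of a gene was taken as the stretch 1 to 10 kb before its transcription start site, outside the core promoter. A CG site was placed there when the nearest start site in the authors' site table lay more than 1000 and up to 10000 bases away on that side, and 35207 of 167387 distinct CG sites (21.0%) met this rule. They lay upstream of 9618 of the 19244 genes in the table, with a median of 2 sites per gene, and 639 genes had at least 10. The tissue was the hippocampus of 3 wild type male guinea pigs aged 12 weeks, with no treatment, and each assay drew on all 3 animals. H3K4me1 ChIP-seq, Pol II PS5 ChIP-seq and bisulfite sequencing of H3K4me1-precipitated DNA (ChIP-bisulfite) had 3 libraries each. Reduced representation bisulfite sequencing (RRBS), which reads DNA near MspI and ApeKI sites of the whole tissue, had 6, at read lengths of 50 and 100 bases. The deposited tables give 1 value per assay for the 3 animals together, so no value below has a spread between animals and no test between animals was possible. Standard errors (SE) and 95% intervals are across scaffolds of the assembly. They describe how far a mean rests on single regions. None of the 19244 gene IDs matched the reference table of gene symbols, so genes are given by ID, and the tissue was not checked against marker genes.

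Methylation of cytosine in CG pairs is usually high across mammalian genomes and low in CG-rich promoters. The bases upstream of a promoter hold its shores and, in many genes, nearby enhancers. H3K4me1, monomethylation of lysine 4 of histone H3, marks enhancers and the flanks of active promoters, while RNA polymerase II phosphorylated on serine 5 (Pol II PS5) is the form found where transcription begins.

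Flank CG sites stood between the start region and the stretch 1 to 10 kb downstream in both bisulfite assays. Their mean level was 47.2% in RRBS (SE 0.510, SD 38.1 across sites) and 40.3% in ChIP-bisulfite (SE 0.493, SD 43.8). The start region, up to 1000 bases either side of a start site, was at 28.2% and 24.5%, and sites 1 to 10 kb downstream were at 56.9% and 48.5%. The mean gap at the flank, ChIP-bisulfite minus RRBS, was -6.87 points (95% interval -7.30 to -6.44). Single sites often went the other way: ChIP-bisulfite was the lower assay at 39.8%, the higher at 29.4% and equal at 30.8%.

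The flank held a mixture of low and high sites. In RRBS 34.9% of its sites were at 20% or less, 36.2% lay in between and 28.9% were at 80% or more. In ChIP-bisulfite these shares were 52.2%, 15.05% and 32.8%. Both assays placed 10681 flank sites (30.3%) at 20% or less and 6765 (19.2%) at 80% or more. At start sites 54.5% of sites were low in both assays, and downstream 19.4% were. Of the 12760 flank sites that RRBS put in between, ChIP-bisulfite put 45.6% at or under 20% and 32.6% at or over 80%. Such moves were not particular to the flank, at 49.6% and 28.2% in the start region and 43.0% and 35.9% downstream. Levels of exactly 0% or 100% made up 67.1% of flank sites in ChIP-bisulfite and 39.9% in RRBS. Over all sites these shares were 66.6% and 36.7%. Across the 35207 flank sites Spearman's rho between the assays was 0.640, as a description over sites that share animals and neighbouring reads. The bars of level classes show the flank between the 2 other windows in each assay.

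**Figure D1:**
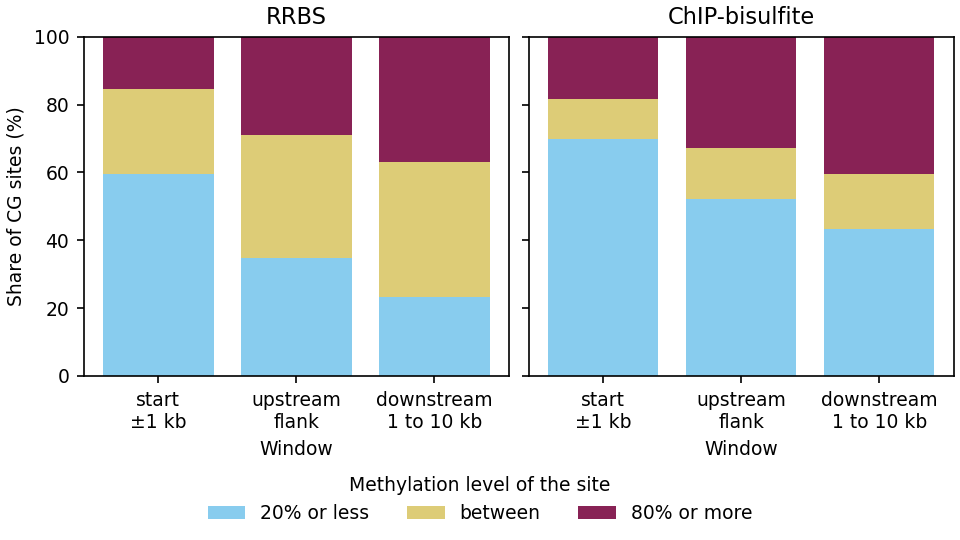
Share of CG sites (vertical axis, percent) at 20% or less, in between, and at 80% or more in RRBS (left) and ChIP-bisulfite (right), for sites within 1 kb of a start site, in the upstream flank and 1 to 10 kb downstream. The low class of the flank is 34.9% in RRBS and 52.2% in ChIP-bisulfite.

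A single site carries a large error in either assay. RRBS levels rested on a median of 17 reads at flank sites (quartiles 12 and 26, lowest 10). At that depth a level of 47.1% (8 of 17 reads) has an exact binomial 95% interval of 23.0% to 72.2%, which covers counting error only. The number of reads behind a ChIP-bisulfite level was not given. In 2354 flank CG pairs both strands were measured, and the SD of 1 strand's level, from the difference of both, was 16.8 points in RRBS and 26.9 in ChIP-bisulfite. Counting error at the RRBS depths would give 7.90 points. Strands were at least 80 points apart in 0.765% of these pairs in RRBS and in 9.69% in ChIP-bisulfite. Means over many sites are therefore the base of what follows.

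Mean methylation was higher farther from the start site. From 1000 to 2000 bases upstream the mean was 40.8% in RRBS (SE 0.822) and 35.3% in ChIP-bisulfite (SE 0.819) over 7692 sites. Between 3000 and 4000 bases it was 48.7% and 42.4%, and between 4000 and 5000 bases slightly lower, at 47.2% and 39.8%. Between 9000 and 10000 bases it was 52.9% (SE 1.12) and 44.4% (SE 1.34) over 2356 sites. The outermost 1000 bases exceeded the innermost 1000 by 12.1 points in RRBS (95% interval 9.48 to 14.8) and by 9.13 points in ChIP-bisulfite (6.26 to 12.0). The number of measured sites per 1000 bases was lower farther out too, and its part in the levels was not tested. Levels were similar across the near limit: the first 100 bases inside it averaged 36.1% in RRBS and 31.3% in ChIP-bisulfite over 916 sites, and the last 100 bases outside it 35.2% and 32.6% over 963. The far limit is also that of the authors' table, which lists 0 sites in the 100 bases beyond it, and the last 100 bases inside averaged 53.9% and 42.9% over 238 sites.

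**Figure D2:**
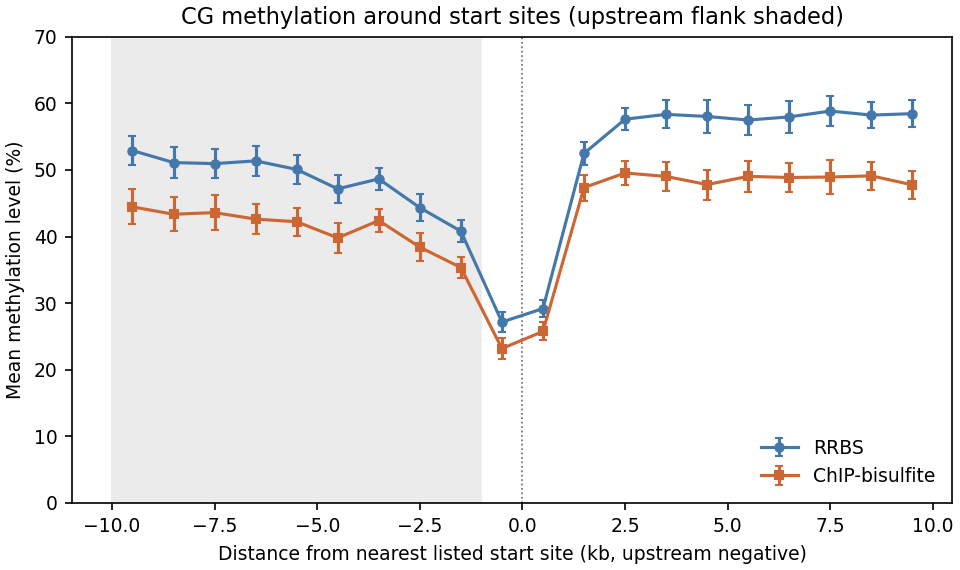
Mean methylation level (percent, vertical axis) in steps of 1000 bases around the nearest listed start site (horizontal axis, kb, upstream negative), for RRBS (circles) and ChIP-bisulfite (squares), with the flank shaded. Bars are 95% intervals across scaffolds. The upstream side climbs slowly to 52.9% in RRBS, while the downstream side is at 57.6% by the third step.

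The flank was less methylated than the matching stretch downstream of the start site. Over all sites the difference was -9.75 points in RRBS (95% interval -10.9 to -8.60) and -8.20 points in ChIP-bisulfite (-9.35 to -7.04), over 35207 flank and 34782 downstream sites. At equal distance it was widest close to the start site. From 1000 to 2000 bases the flank was at 40.8% and the downstream side at 52.4% in RRBS, a difference of -11.6 points. From 2000 to 3000 bases the RRBS difference was -13.4 points, and from 9000 to 10000 bases it was -5.53 points (95% interval -8.52 to -2.55). The ChIP-bisulfite differences at these 3 distances were -12.02, -11.2 and -3.32 points, and the interval of the last (-6.74 to 0.104) included 0. Within single genes the flank was lower than the own downstream side by a median of -7.39 points in RRBS (95% interval -9.33 to -5.37), over 1438 genes with at least 3 sites on each side. It was lower in 857 of these genes and higher in 572.

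The contrast differed with the CG density of the H3K4me1 interval. The authors' table of H3K4me1 intervals gives the number of C positions in each, and 35206 flank sites lay in such an interval, at a median of 37.7 positions per 1000 bases. The median was 54.2 near start sites and 34.5 downstream. This density is that of the whole interval, not of the bases around a site. For 49.1% of flank sites the H3K4me1 peak also covered the gene's own start site. All sites of the table with a density were split at its quintiles into 5 groups, which hold unequal numbers of flank sites (5549 to 9455), and in the least dense the flank was at 63.8% in RRBS and 56.2% in ChIP-bisulfite, and in the densest at 26.9% and 23.4%. Flank and downstream sites were close where density was low, with a difference of -2.53 points in RRBS (95% interval -4.00 to -1.05) and -2.07 points in ChIP-bisulfite (-3.89 to -0.245). In the densest group the difference was -12.6 points in RRBS (-15.9 to -9.25) and -10.5 points in ChIP-bisulfite (-13.7 to -7.29). With density held at the flank's own mixture, the overall differences were -8.66 and -7.28 points.

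**Figure D3:**
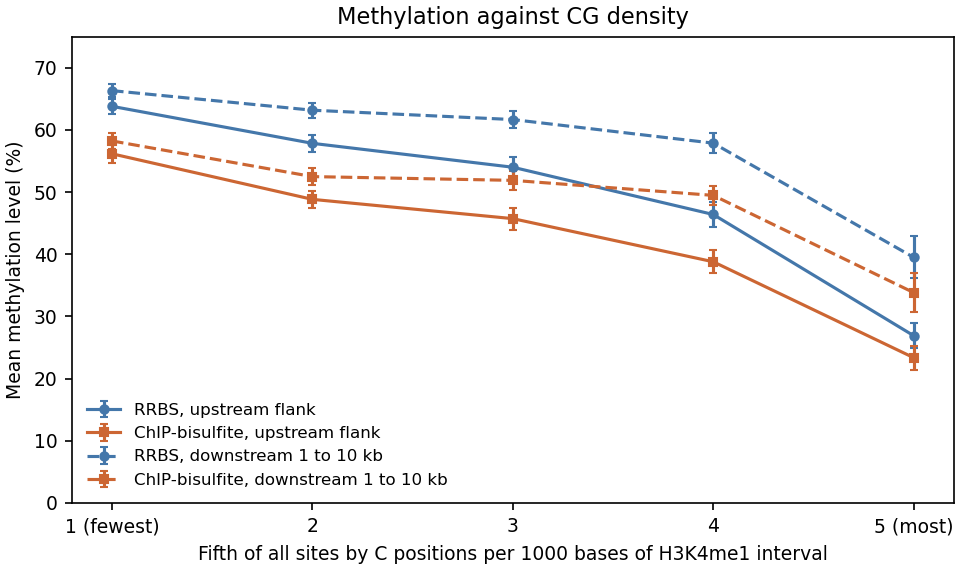
Mean methylation level (percent, vertical axis) in 5 groups by CG density (horizontal axis, fewest to most C positions per 1000 bases of H3K4me1 interval) for flank sites (solid) and downstream sites (dashed) in RRBS (circles) and ChIP-bisulfite (squares). Bars are 95% intervals across scaffolds. The flank lies under the downstream curve in each group, with RRBS differences of -2.53 points in the first and -12.6 in the last.

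Compared with the own start region, the flank of a gene was only slightly more methylated at the median, and genes went both ways. Over 776 genes with at least 3 sites in each window, the flank exceeded the start region by a median of 5.40 points in RRBS (95% interval 3.00 to 8.50) and 2.80 points in ChIP-bisulfite (1 to 6.05). In RRBS the flank was higher in 458 genes and lower in 300, with quartiles of -13.6 and 31.3 points. These 776 genes differ from the windows as a whole. Their gene means averaged 41.0% at the flank and 32.9% at the start region, against 47.2% and 28.2% over all sites of the windows. It was at least 20 points higher in 269 genes and at least 20 points lower in 147. With sites of at least 20 RRBS reads the interval of the median included 0, at 0.843 points (-2.73 to 5.38) in RRBS and 0 (-1.58 to 4.71) in ChIP-bisulfite. With only flank sites within 5000 bases of the start site the medians were 2 points (0 to 4.25) and 0 points (0 to 2), and in the outer flank the ChIP-bisulfite interval reached 0 as well (4.07, 0 to 10.1).

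Averaged over whole windows, the gap between the assays widened from start region to flank to downstream window, and the RRBS level rose in the same order. The flank gap was -3.17 points wider than that at start sites (95% interval -3.84 to -2.50) and narrower than the downstream gap by 1.55 points (0.945 to 2.16). For the outer flank alone, the latter difference was 0.409 points and its interval included 0 (-0.365 to 1.18). With RRBS levels matched in steps of 10 points, both differences turned round. The flank gap was then 1.82 points narrower than at start sites (0.980 to 2.65) and wider than downstream by -1.44 points (-2.03 to -0.852). The RRBS level is itself a term of the gap and has a large error at single sites. Matching on it can by itself shift the differences in these directions, so the matched values do not show what the order rests on. Along the flank the gap went from -5.46 points at 1000 to 2000 bases to -8.46 points in the outermost step.

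All 35207 flank sites lay in H3K4me1 peaks, as did every other site in the authors' site table, so this is not particular to the flank. The flank sites fell into 10532 peaks with a median width of 4985 bases, against 1785 over all H3K4me1 peaks. The authors' peak score has a low and a high scale in 1 column, and 92.1% of the 10532 peaks were on the high scale, against 45.8% of all peaks. These 10532 peaks were chosen for holding a measured site, which a wide peak is more likely to do. Peaks holding start or downstream sites were not compared, so neither contrast can be called particular to the flank. For 17273 sites (49.1%) the peak also covered the gene's own start site, and is called shared here. The other 17934 lay in a peak apart from it. Sites in shared peaks were at 44.7% in RRBS and 38.6% in ChIP-bisulfite, and sites in separate peaks at 49.6% and 41.9%. At 1000 to 2000 bases sites in shared peaks were lower by -5.10 points in RRBS (95% interval -8.60 to -1.60). The ChIP-bisulfite difference of -3.39 points had an interval that included 0 (-7.08 to 0.304). At 2000 to 3000 bases they were lower by -6.99 points in RRBS (95% interval -10.8 to -3.21) and -5.66 points in ChIP-bisulfite (-9.44 to -1.88). Beyond 3000 bases the intervals of the difference included 0 in each step and assay, for example -0.700 points in RRBS (-4.39 to 2.99) in the step from 7500 bases outward.

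Pol II PS5 peaks marked the least methylated part of the flank. They held 972 flank sites (2.76%, exact binomial interval 2.59 to 2.94), in 343 peaks upstream of 332 genes. That interval counts sites singly, though a peak held up to 48 of them, so it is too narrow. Without the 5 flanks with most such sites the share was 2.12%. Downstream 1.46% of sites lay in such peaks, and within 1000 bases of a start site 6.55% did. Flank sites inside were at 20.3% in RRBS and 16.6% in ChIP-bisulfite, against 47.9% and 41.0% outside. The differences were -27.7 points in RRBS (95% interval -32.5 to -22.9) and -24.4 points in ChIP-bisulfite (-29.0 to -19.7). With CG density held at that of the sites inside, they were -20.5 and -18.3 points. Of the 343 Pol II PS5 peaks, 225 (65.6%) had a mean of 20% or less over their flank sites in both assays, and 13 had 80% or more in both.

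Low methylation reached beyond the edges of the Pol II PS5 peaks. Flank sites 1 to 250 bases from a peak were at 21.0% in RRBS (SE 1.14) and 19.0% in ChIP-bisulfite (SE 1.29). At 250 to 500 bases the levels were 29.4% and 27.3%, and at 500 to 1000 bases 40.8% and 36.6%. From 1000 to 2000 bases they reached 50.7% and 45.7%, close to the 49.9% and 41.8% of sites over 10000 bases away. The median CG density of the H3K4me1 interval was lower away from peaks too. It was 55.8 C positions per 1000 bases inside, 47.2 at 1 to 250 bases, 40.6 at 1000 to 2000 and 36.1 over 10000. The part of density in these steps was not tested. Downstream sites inside Pol II PS5 peaks were at 36.5% in RRBS and 33.9% in ChIP-bisulfite, lower than outside by -20.8 points (95% interval -28.1 to -13.5) and -14.8 points (-23.3 to -6.34). The flank's own differences were larger than these by -6.93 points in RRBS (-15.6 to 1.73) and -9.53 points in ChIP-bisulfite (-19.3 to 0.216), and both intervals included 0. In level, flank sites inside peaks were lower than downstream sites inside peaks by -16.2 points in RRBS (95% interval -25.0 to -7.42) and -17.3 points in ChIP-bisulfite (-27.2 to -7.37). Farther than 1000 bases from any Pol II PS5 peak the flank was still lower than downstream, by -7.56 points in RRBS (-8.67 to -6.46) and -6.45 points in ChIP-bisulfite (-7.53 to -5.37).

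**Figure D4:**
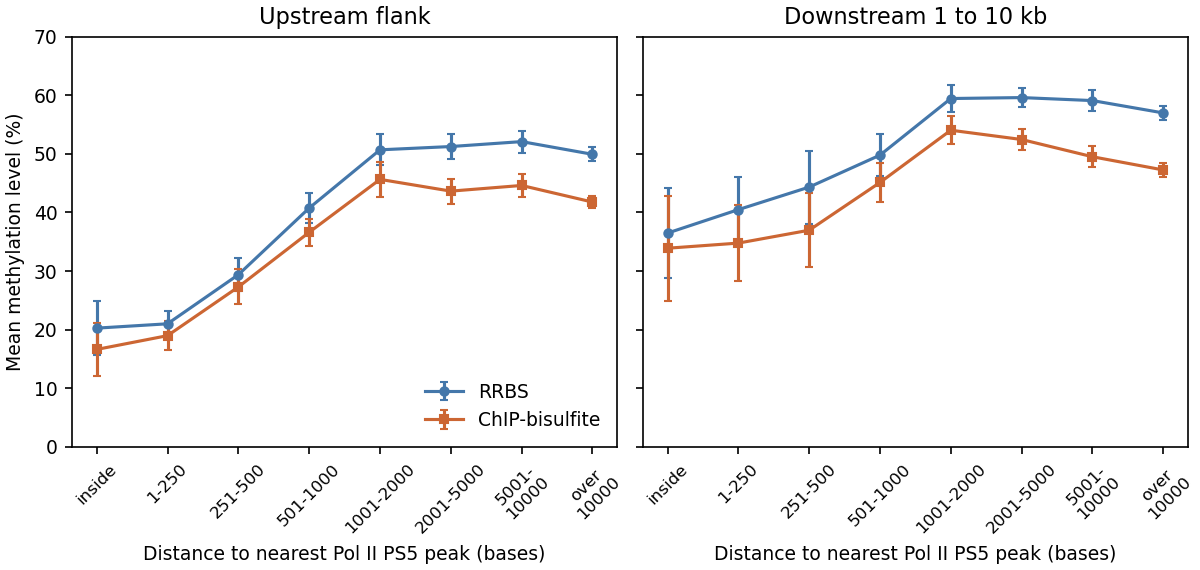
Mean methylation level (percent, vertical axis) by distance to the nearest Pol II PS5 peak (horizontal axis, bases, in unequal steps) for the upstream flank (left) and the downstream window (right), in RRBS (circles) and ChIP-bisulfite (squares). Bars are 95% intervals across scaffolds. The flank goes from 20.3% inside peaks to 50.7% at 1000 to 2000 bases in RRBS, the downstream window from 36.5% to 59.5%.

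A few flanks supplied many of the sites in Pol II PS5 peaks. The 5 flanks with most such sites held 238 of the 972 (24.5%), at a median of 156 RRBS reads per site, against 17 for the other 734. These 238 sites were at 34.5% in RRBS and 26.8% in ChIP-bisulfite, and the other 734 at 15.6% and 13.3%. Without the 5 flanks, the share of flank sites in Pol II PS5 peaks was 2.12% and the differences were -32.5 points in RRBS and -27.8 points in ChIP-bisulfite. The part that read depth has in these levels was not tested.

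The authors' Pol II PS5 score of a transcript went with small differences at the flank. A site took the highest score among all transcripts listed for it, those of other genes included. By this rule 17164 flank sites were scored, and by the nearest transcript alone 12070. Of flank sites also downstream of another gene's start site 71.9% were scored, against 37.8% of those listed with 1 gene. Scored flank sites were at 47.9% in RRBS and 40.8% in ChIP-bisulfite, and those without a score at 46.5% and 39.9%. The differences were 1.48 points (95% interval -0.372 to 3.33) and 0.924 points (-0.940 to 2.79), over 17164 and 18043 sites. The RRBS interval no longer included 0 with the score of the nearest transcript alone, at 1.92 points (0.266 to 3.58), or without the 10 genes with most flank sites, at 1.76 points (0.0986 to 3.42). Near start sites scored transcripts were lower, by -5.84 points in RRBS (-7.61 to -4.06) and -4.99 points in ChIP-bisulfite (-6.98 to -2.99). The flank's difference lay above that at start sites by 7.31 points in RRBS (4.96 to 9.67) and 5.91 points in ChIP-bisulfite (3.66 to 8.15). Downstream scored transcripts were higher, by 3.40 points (1.57 to 5.23) and 4.54 points (2.76 to 6.31). Within the flank, RRBS levels were 50.1%, 49.2%, 46.6% and 45.9% in 4 groups of sites from the lowest to the highest score, with SEs of 1.08 to 1.59. The score was seldom that of a peak in the flank. A Pol II PS5 peak with exactly the same score lay within 100000 bases of the start site for 4567 of 7396 scored transcripts. The nearest such peak was within 1000 bases of the start site in 54.7% of them and farther downstream in 44.8%, and 1 to 10 kb upstream in 5 transcripts. Of the 972 flank sites inside a Pol II PS5 peak, 61.0% had a scored transcript, against 48.8% of all flank sites. Counting only the nearest transcript, the shares were 38.8% and 34.3%.

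The authors' list of differentially methylated sites held 2914 flank sites lower in ChIP-bisulfite than in RRBS, 8.28% of the flank (exact binomial interval 7.99 to 8.57), against 10.2% of all sites. It held 1050 higher flank sites, 2.98% (2.81 to 3.17), against 2.93% of all sites. The lower sites averaged 87.7% in RRBS (SD 10.7) and 6.04% in ChIP-bisulfite (SD 8.66), upstream of 2227 genes. The higher sites averaged 13.3% and 92.0%, upstream of 910 genes. At all 167387 sites, being on the list matched a level of 70% or above by RRBS with 30% or below by ChIP-bisulfite, or the reverse, so the RRBS level sets which sites could be listed. Among flank sites at 70% or more in RRBS, 23.0% were listed lower (22.3 to 23.8), against 23.8% of all such sites. Among those at 30% or less, 7.39% were listed higher (6.96 to 7.83), against 9.02% of all such sites. The flank's share lay between 4.18% near start sites and 10.4% downstream. Inside Pol II PS5 peaks 15 of 715 flank sites at 30% or less were listed higher (2.10%, 1.18 to 3.44), against 7.67% (7.23 to 8.13) outside. Sites that share reads and peaks were counted singly in these intervals.

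The flanks of single genes varied more than the difference between the assays. In the 639 flanks with at least 10 sites, the mean level had quartiles of 15.8% and 58.6% in RRBS and of 12.8% and 50.2% in ChIP-bisulfite. Sites within a flank had an SD of 29.2 points in RRBS and 35.1 in ChIP-bisulfite, and flank means had an SD of 24.5 and 22.7. The assays ranked these flanks alike, with a Spearman's rho of 0.882 over 639 means of the same animals. Both assays put 174 flanks at 20% or less and 6 at 80% or more. ChIP-bisulfite was lower in 435 flanks and higher in 202, within 10 points in 406, lower by at least 20 points in 67 and higher by at least 20 points in 8.

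Among these flanks the most negative mean gap, ChIP-bisulfite minus RRBS, was upstream of ENSCPOG00000009248, at scaffold_156 from 1116861 to 1121491. Its 10 sites averaged 78.9% in RRBS (SD 23.6) and 0.800% in ChIP-bisulfite (SD 2.53), and all 10 were lower. Of these, 6 sites at -1317 to -1211 bases had RRBS levels of 62% to 100%, each on 21 reads, and were unmethylated (0%) in ChIP-bisulfite. The other 4, at -5841 to -5815 bases, were at 43% to 71% and at 0% to 8%, with 30 or 31 reads. Upstream of ENSCPOG00000023105, at scaffold_346 from 23575 to 30618, 10 sites averaged 74.1% and 23.8%. There, 6 neighbouring sites at -9238 to -9210 bases were at 70% to 100% in RRBS and at 0% to 4% in ChIP-bisulfite, while 2 sites nearer to the start site were higher in ChIP-bisulfite. The other 4 of the 6 most negative flanks had mean gaps of -44.2 to -39.9 points.

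The most positive gaps were smaller. Upstream of ENSCPOG00000006424, at scaffold_19 from 29456385 to 29463062, 12 sites averaged 13.9% in RRBS (SD 19.9) and 44.2% in ChIP-bisulfite (SD 47.1). Of these sites 6 were higher in ChIP-bisulfite, 2 were lower and 4 were at 0% in both. Upstream of ENSCPOG00000008663, at scaffold_76 from 3878243 to 3881126, 13 sites averaged 56.7% and 81.9%, with 8 higher and 3 lower. The other 4 of the 6 most positive flanks had mean gaps of 22.4 to 24.3 points. The files hold no exon or intron positions.

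**Figure D5:**
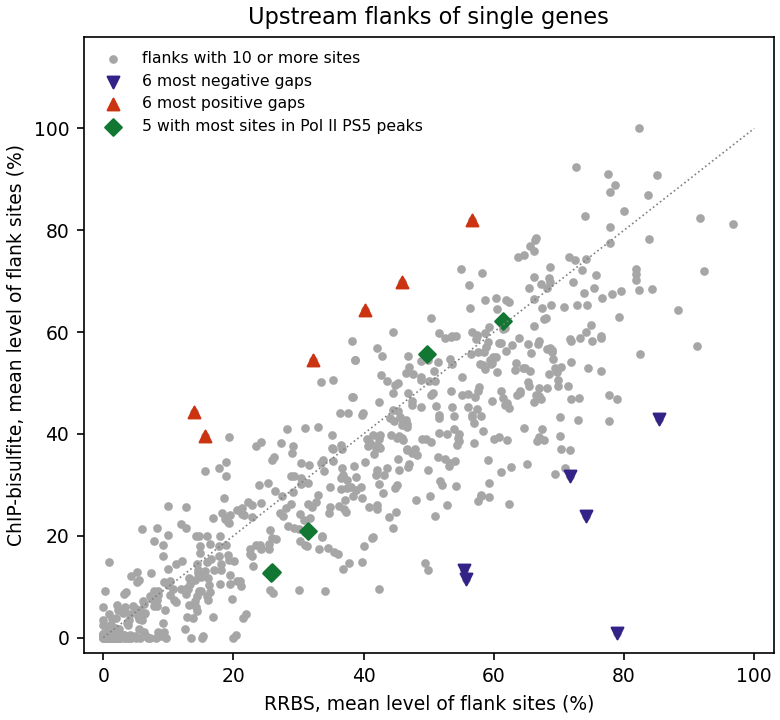
Mean level of the flank sites of each of 639 genes with at least 10 such sites, in RRBS (horizontal axis, percent) and ChIP-bisulfite (vertical axis, percent), with a dotted line of equal levels. The 6 most negative and 6 most positive gaps are marked by triangles, chosen by their distance from that line. The 5 flanks with most sites in Pol II PS5 peaks lie at 25.8% to 61.4% in RRBS, and 2 of these points overlap.

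The 5 flanks lowest in mean level had means of 0% to 0.308% in RRBS and 0% to 0.133% in ChIP-bisulfite over 10 to 22 sites. The 2 lowest covered short stretches, at scaffold_30 from 22407622 to 22407737 and at scaffold_7 from 44474399 to 44474623. The flank of 22 sites, at scaffold_49 from 12314664 to 12319772, ran from -6370 to -1262 bases and had 3 sites in Pol II PS5 peaks. Of the 5 most methylated, the flank at scaffold_369 from 210655 to 216037 averaged 82.3% in RRBS and was at 100% in ChIP-bisulfite at all 13 sites. The flank at scaffold_41 from 2873457 to 2876137 averaged 96.7% and 81.2% over 10 sites, of which 2 were listed by the authors as lower.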

How the data were processed

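Per the submitters' processing notes, ChIP-seq libraries were processed with Bowtie2 2.2.3, SAMtools 1.1, MACS2 and HOMER 4.6, ChIP-bisulfite with Bismark 0.12.5, SAMtools 1.1, methylKit, MACS2 and HOMER, and RRBS with BSMAP 2.74, SAMtools 1.1 and methylKit. Roles, order and the genome build were not given in the sources used here, nor whether positions count from 0 or 1. The authors gave the level of each site in each assay in percent, rounded to whole numbers. RRBS depth was deposited as read counts per C position, for positions with at least 10 reads. Pol II PS5 and H3K4me1 peaks carry a score by the authors, used only within its list. A deposited table of H3K4me1 intervals was used for its counts of C positions.

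Each of 241970 lines was reduced to the nearest listed start site of its site, with the highest score among the site's transcripts. Means carry an SE from sums of residuals per scaffold, and differences keep the covariance of shared scaffolds. Simulated data had normally distributed values with set spreads for scaffolds, H3K4me1 peaks and sites. Over 35207 flank sites, 96% of 200 intervals of the flank mean held the true value. For the difference between flank and downstream in the Pol II PS5 contrast, over 69989 sites, 92.5% did, so those intervals may be too narrow. The real levels are bounded, and 67.1% of flank levels in ChIP-bisulfite were 0% or 100%, so the coverage may differ for them. Medians over genes carry intervals from order statistics. The flank and the downstream window reached 1 base past 10000 bases, as the listed distances were cut. A site was inside a peak when its position was. Named flanks had at least 10 sites: the 6 most negative and 6 most positive mean gaps between the assays, the 5 lowest and highest, the 5 with most sites in Pol II PS5 peaks and the 3 with most sites. Planned gene lists of symbols could not be used, since 0 of 19244 IDs matched. The digestion controls were not analysed here. The members and lists were chosen with earlier results of these data known. Python 3.11.15, numpy 2.4.6, pandas 2.3.3, scipy 1.17.1 and matplotlib 3.10.9 were used.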

Additional observations from a re-analysis of the deposited data

How the results depend on the processing

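No paired analysis was possible because each assay has 1 value per site for the 3 animals together, and leaving out an animal was not possible for the same reason. Of 149 alternative values, 99 stayed within the 95% interval of the reported value, 48 moved outside it and 2 reversed. The 2 reversals came with RRBS levels matched in steps of 10 points, where the flank gap minus the start-site gap was 1.82 points and minus the downstream gap -1.44. With at least 20 RRBS reads, the flank was at 48.8% in RRBS and 41.5% in ChIP-bisulfite, the gap was -7.36 points, and 3.72% of sites lay in Pol II PS5 peaks. There, 7.93% of sites were listed lower and 2.19% higher, and flanks exceeded their own start region by 0.843 points in RRBS and 0 in ChIP-bisulfite. With each H3K4me1 peak counted once, the levels were 54.4% and 46.8%, the gap -7.68, its difference from downstream 0.909, the RRBS difference from downstream -8.19, and the differences at Pol II PS5 peaks -35.3 (RRBS) and -30.1 (ChIP-bisulfite). For the inner flank, within 5000 bases of the start site, levels were 44.4% and 38.4%, the gap was -6.09, and its differences from start and downstream were -2.39 and 2.34. Levels differed from downstream by -12.5 and -10.2 points, 3.03% of sites lay in Pol II PS5 peaks, 7.42% were listed lower, and flanks exceeded the own start region by 2.0 and 0 points. For the outer flank, farther than 5000 bases, the values were 51.2% and 43.2%, a gap of -8.02 with differences of -4.32 and 0.409, level differences from downstream of -5.76 and -5.35, 2.37% in Pol II PS5 peaks and 9.52% listed lower. Inner and outer flank were each set against the whole downstream window of 1 to 10 kb, so distance was not matched in these differences. The share of sites in Pol II PS5 peaks was 2.32% without the top 1% of read depths, 2.29% without the 10 genes with most sites, 1.73% with peak scores above the median only and 10.2% when sites within 500 bases were included. A score above the median against none gave -0.542 points in RRBS and -1.21 in ChIP-bisulfite, the other way from any score against none. When sites were counted by a gap of 40 points or more, not by the list, 17.5% of flank sites were lower and 8.56% higher. Chosen after the data were seen were 3 alternatives. Sites listed with 1 gene were at 48.4% and 41.4%. Holding CG density gave differences of -20.5 and -18.3 points at Pol II PS5 peaks. Without the 5 flanks with most sites in these peaks the share was 2.12%. The cause of each move was not tested. RRBS depth limits single sites, and the unknown ChIP-bisulfite depth leaves the error of its single levels without a counting interval.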

Other observations

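A flank site can belong to more than its nearest gene. Of the 35207 sites, 9341 (26.5%) were also listed downstream of another gene's start site, 2805 (7.97%) were listed only upstream of another gene, and 23061 were listed with 1 gene. Sites upstream of 2 or more genes were at 40.2% in RRBS (SE 1.32) and 34.5% in ChIP-bisulfite (SE 1.49), and sites with 1 gene at 48.4% (SE 0.523) and 41.4% (SE 0.470). The first also lay closer to their start site, at a median of -2875 bases against -4512. Sites also downstream of another gene's start site were at 46.3% and 39.5%, and 3.93% of them lay in Pol II PS5 peaks, against 2.24% of those with 1 gene.

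The 3 flanks with most sites were read at a higher RRBS depth than the flank's median of 17 reads. One on scaffold_537 from 4613 to 11587 had 215 sites at a median of 71 reads, 31.4% in RRBS and 20.9% in ChIP-bisulfite. Another on scaffold_927 from 12378 to 17545 had 179 sites at 101 reads, 25.9% and 12.96%. The last, on scaffold_927 from 243 to 810, had 61 sites at 796 reads, 25.8% and 12.7%. In these 3 flanks 53, 80 and 48 sites lay in Pol II PS5 peaks.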
